A study of Mus musculus with 47 samples.

Results

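The genes for 8 growth signals, the VEGF ligands Vegfa and Vegfb, the PDGF ligands Pdgfa and Pdgfb, the fibroblast growth factor Fgf2, the insulin-like growth factors Igf1 and Igf2, and the growth hormone feedback gene Socs2, were followed in single muscle fibres with and without fast myosin binding protein-C. They were taken by symbol from the 24421 genes of the count tables, and all 8 were among the 12863 genes that entered the test. The fibres belonged to a fast-twitch hindlimb muscle, the extensor digitorum longus (EDL), of FVB/N mice aged 2 to 3 months. C2KO mice, from which 20 fibres were taken, carry a germline replacement of a run of Mybpc2 exons by a Neo cassette, and WT mice, from which 27 fibres were taken, carry intact Mybpc2. The labels name 2 C2KO and 3 WT mice and tie no fibre to a mouse.

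Each sample is 1 fibre, so fibres of a mouse are not replicates of a genotype. Raw counts were summed over the largest sets of fibres that the labels separate: C2KO 740 and C2KO 2445, by the prefix of the fibre name, with 10 fibres each, and WT pools 1, 2 and 3, by sequencing run, with 10, 10 and 7 fibres. Fold changes below are C2KO over WT on the log2 scale from edgeR's quasi-likelihood test over these 2 and 3 pools, each with its standard error (SE). The call rule was a fold above 1.5 together with a Benjamini-Hochberg adjusted p below 0.05. Levels in single fibres are counts per 1000000 gene counts (CPM), given as lowest, median and highest fibre. No label says that a prefix or a run is a mouse, so the p-values reflect only how far these pools differ, which may be technical.

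Depth was 7648762 to 10517887 gene counts per C2KO fibre and 7769593 to 14606631 per WT fibre. Mybpc2, the deleted gene, held 2.61 to 47.6 CPM in C2KO fibres and at least 6563 CPM in WT fibres, so every fibre matched its label. The 7 fast myofibre markers summed to at least 229164 CPM in every fibre. Genotype and run were nearly confounded: run 0092 alone held both, with 1 fibre of C2KO 740 and the 7 fibres of WT pool 3. Markers of other cell types were unevenly spread. The 12 endothelial markers summed to 0 to 110 CPM in C2KO fibres and 0 to 5.19 CPM in WT fibres, and the 10 fibroblast markers to 0.191 to 5135 CPM in C2KO fibres and 0.254 to 367 CPM in WT fibres. The highest sums of both lists were in fibres of C2KO 740. Each endothelial marker had a count in some fibre, though Vwf was at 0 in all WT fibres. The 8 macrophage markers summed to 3.61 to 26.02 CPM in C2KO fibres and 1.98 to 18.8 CPM in WT fibres, with Adgre1 at 0 in all C2KO fibres and Csf1r and C1qa at 0 in all WT fibres. The 7 pericyte and smooth muscle markers summed to 139 to 321 CPM in C2KO fibres and 85.2 to 315 CPM in WT fibres, but Abcc9, which myofibres also express, made up 97.9% and 99.1% of these sums. Satellite cell markers reached at most 2.46 CPM in C2KO and 2.15 CPM in WT fibres, and Schwann cell markers at most 3.09 CPM in C2KO and 5.31 CPM in WT fibres.

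A muscle fibre signals to the vessels and cells around it. Vegfa binds Flt1 and Kdr on endothelial cells and is the main fibre-made cue for capillary growth, while Vegfb binds Flt1 and is best known in tissues that burn fatty acids. PDGF-B, usually an endothelial product, recruits pericytes that carry Pdgfrb, and PDGF-A acts on mesenchymal cells that carry Pdgfra. Igf1 and Igf2 act through Igf1r to drive fibre growth, and growth hormone signals through Ghr, Jak2 and Stat5b, whose targets include Igf1 and the inhibitor Socs2.

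None of the 8 genes was called. The called genes over the whole table were 6 of 12863, or 0.0466%, with 3 higher (0.0233%) and 3 lower (0.0233%) in C2KO, and none of those 6 belonged to the lists used here. No member had every C2KO fibre above every WT fibre, a pattern that 0.0311% of genes showed. The fold change was above 0 for 8 of the 8 members, against 49.9% of all genes tested, with a median of 0.47 against -0.00038 over all genes tested. For 4 members, Vegfa, Vegfb, Pdgfa and Pdgfb, both C2KO pools lay above all WT pools, which was so for 13.1% of all genes. At an unadjusted p under 0.05, with no correction, 2 members were higher in C2KO, Vegfa and Pdgfb, against 6.2% of all genes. Counts of 8 genes chosen with earlier results known describe these genes and no wider set.

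**Figure D1:**
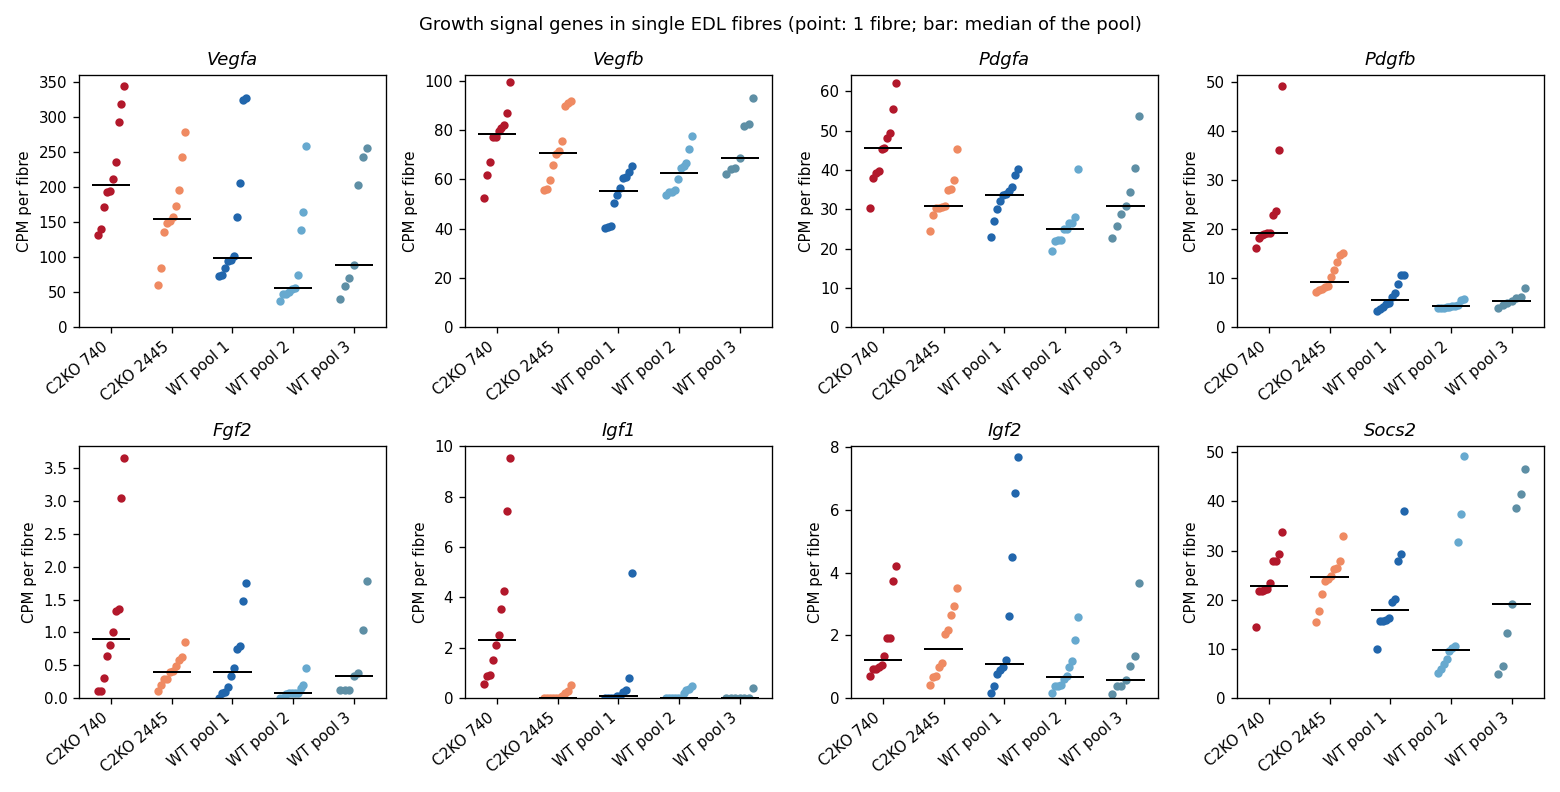
Level of each of the 8 genes in single fibres, in CPM, by pool, with C2KO pools in red shades left of WT pools in blue shades. Each point is 1 fibre and each bar the median of its pool. All 10 C2KO 740 fibres sit above all WT fibres for Pdgfb, and WT fibres spread over 37.8 to 328 CPM for Vegfa and 4.96 to 49.1 CPM for Socs2.

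Vegfa, on chromosome 17 (mm10, 46016993 to 46032377, minus strand), was at 60.0, 183 and 345 CPM in C2KO fibres and at 37.8, 89.4 and 328 CPM in WT fibres. The ranges overlapped almost wholly, but 18 of 20 C2KO fibres lay above the WT median. In pools it was at 215 CPM in C2KO 740 and 172 CPM in C2KO 2445, against 157, 91.7 and 134 CPM in WT pools 1, 2 and 3, and averaged 193 CPM ± 30.7 (SD, n = 2 pools) in C2KO and 127 CPM ± 33.0 (SD, n = 3 pools) in WT. The fold change was 0.60 (SE 0.23, edgeR adjusted p = 0.459), short of the call rule.

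In Vegfa the highest fibre held 5.75 times the lowest over 20 C2KO fibres and 8.67 times over 27 WT fibres, sets unequal in fibres and pools. Within pools this ratio was 2.63 in C2KO 740 and 4.64 in C2KO 2445, against 4.44, 6.84 and 6.37 in WT pools 1, 2 and 3. The genotypes thus overlapped in spread. C2KO 740 fibres were at 131, 203 and 345 CPM and C2KO 2445 fibres at 60.0, 155 and 278 CPM. The WT medians were 99.1, 55.5 and 89.4 CPM in pools 1, 2 and 3, so a C2KO fibre at its pool's median carried more Vegfa than a WT fibre at the median of any WT pool. The highest WT fibres stood at 328, 258 and 256 CPM in the same pools, far above those medians.

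Vegfb, on chromosome 19 (6982472 to 6987651, minus strand), spread least of the members in either genotype, with the highest fibre at 1.89 times the lowest in C2KO and 2.31 times in WT. It was at 52.6, 76.3 and 99.5 CPM in C2KO fibres and at 40.3, 62.2 and 93.1 CPM in WT fibres. Its pools stood at 73.4 CPM in C2KO 740 and 76.7 CPM in C2KO 2445, against 53.7, 61.8 and 72.8 CPM in WT pools 1, 2 and 3. WT pool 3, the only WT pool with a C2KO fibre in its run, was close to C2KO 740. The fold change was 0.26 (SE 0.14, edgeR adjusted p = 0.563).

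The stretches upstream of both VEGF genes are shown because these ligands were among the 3 most abundant members per length and Vegfa is a textbook target of hypoxia signalling. RefSeq promoters (GRCm38.p6, the same assembly as mm10) matched 6 of the 8 members, with 11 promoters, and Pdgfb and Socs2 had no entry. The 250 bases before each start are printed 5′ to 3′, with capitals marking the hypoxia response core ACGTG or GCGTG on either strand. The Vegfa window is chr17:46032378-46032627 and the Vegfb window chr19:6987652-6987901, both on the minus strand.
Vegfa: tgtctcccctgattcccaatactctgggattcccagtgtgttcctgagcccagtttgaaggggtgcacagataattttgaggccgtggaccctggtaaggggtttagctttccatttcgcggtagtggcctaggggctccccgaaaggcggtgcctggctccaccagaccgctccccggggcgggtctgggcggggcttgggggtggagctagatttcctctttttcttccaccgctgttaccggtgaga
Vegfb: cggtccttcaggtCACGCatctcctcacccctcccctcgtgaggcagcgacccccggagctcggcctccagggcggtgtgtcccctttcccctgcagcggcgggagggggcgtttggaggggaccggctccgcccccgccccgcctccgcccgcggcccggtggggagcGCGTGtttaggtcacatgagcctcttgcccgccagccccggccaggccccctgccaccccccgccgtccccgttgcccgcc
The Vegfa window printed here, at the upstream start, held no match, and bases further upstream were not searched. The other Vegfa window in the table, chr17:46025164-46025413 on the minus strand, held 1 match to ACGTG and 1 to GCGTG. It lies inside the span of the gene given above, before an internal start, and so not upstream of the whole gene. The Vegfb window held 2 matches to GCGTG, 1 on each strand. Of all 32851 promoters in the table, 38.6% held ACGTG or GCGTG in the same 250 bases. A STAT5-type TTCNNNGAA was in none of the 11 windows (7.02% of all promoters), nor was TCAAGGTCA, the ERR site (0.387%). The AP-1 motif TGANTCA was in 1, that of Igf1 (6.75%).

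Pdgfb, on chromosome 15 (79995876 to 80014808, minus strand), was the member whose fibres separated most by genotype. It was at 7.21, 15.7 and 49.1 CPM in C2KO fibres and at 3.27, 4.79 and 10.6 CPM in WT fibres. All 20 C2KO fibres lay above the WT median and 14 above the highest WT fibre. The 14 were all 10 fibres of C2KO 740 and 4 of C2KO 2445.

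The separation was unequal between the C2KO prefixes. Pdgfb was at 16.2, 19.3 and 49.1 CPM in C2KO 740 fibres and at 7.21, 9.30 and 15.2 CPM in C2KO 2445 fibres, with no overlap. Only 20 of 12863 genes, 0.155%, had every C2KO 740 fibre above every WT fibre, and 57, 0.443%, had every C2KO 740 fibre above every C2KO 2445 fibre. Within the run that held both prefixes, the 6 fibres of C2KO 740 spanned 16.2 to 49.1 CPM and again lay above all 10 of C2KO 2445, as was so for 0.902% of genes. All C2KO 740 fibres had Y-linked counts and all C2KO 2445 fibres had Xist counts. Prefix cannot be told apart from this, here or for Pdgfa and Igf1. Pdgfb was at 3.27, 4.45 and 6.99 CPM in WT fibres with Y-linked counts and at 3.70, 5.45 and 10.6 CPM in those with Xist.

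In pools Pdgfb was at 23.1 CPM in C2KO 740 and 11.0 CPM in C2KO 2445, against 6.47, 4.42 and 5.53 CPM in the WT pools. The fold change was 1.64 (SE 0.32, edgeR adjusted p = 0.355), not called. By DESeq2's Wald test on the same pools Pdgfb passed at an adjusted p of 0.00036, where 1.03% of genes were called higher. Leaving out a C2KO pool leaves 1 C2KO pool against 3 WT pools, so that the WT pools alone give the spread and the lone C2KO pool is assumed to vary like them. On that assumption the fold change was 2.09 without C2KO 2445 (edgeR adjusted p = 0.0131, with 2.33% of genes called higher) and 1.01 without C2KO 740 (edgeR adjusted p = 0.293). Over all 14 alternatives its adjusted p, by edgeR, limma or DESeq2, ran from 0.00036 to 0.848.

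Endothelial cells are the usual source of Pdgfb, and their markers were measured in the same fibres. Among C2KO 740 fibres, the 3 whose endothelial sum exceeded every WT fibre held 18.9 to 19.3 CPM of Pdgfb and the other 7 held 16.2 to 49.1 CPM. The fibre with no endothelial marker count at all held 16.2 CPM. Across 47 fibres, after subtracting the pool mean, Pdgfb and the endothelial sum had a Pearson r of -0.24 on the log2(CPM + 0.5) scale. It was -0.15 among C2KO fibres and -0.48 among WT fibres. With pool means taken out, this r does not bear on the difference between pools. With fibres rich in endothelial, fibroblast or macrophage markers left out, a choice made after seeing the data that removed 5, 2, 2, 2 and 0 fibres from the 5 pools in the order used above, the Pdgfb fold change was 1.59 (edgeR adjusted p = 0.278). The part of endothelial RNA in the Pdgfb values was not tested.

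Macrophages can make Pdgfb too. Its r with the macrophage sum was -0.01 across the 47 fibres and 0.75 across the 10 of C2KO 740, where that sum was 3.62 to 26.02 CPM and the fibre with the most, 26.02 CPM, also had the most Pdgfb, 49.1 CPM. Across the same 10 fibres the macrophage sum had an r of 0.72 with Pdgfa and 0.74 with Fgf2. In C2KO 740 Mrc1 made up 51.4% of that sum, and 4 of the 8 markers, Adgre1, C1qa, C1qb and C1qc, were at 0. The satellite cell sum, at most 2.46 CPM there, ran in a like way across these fibres, with an r of 0.67 with Pdgfb, 0.68 with Pdgfa and 0.73 with Fgf2. The part of RNA from either cell type in these values was not tested.

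**Figure D2:**
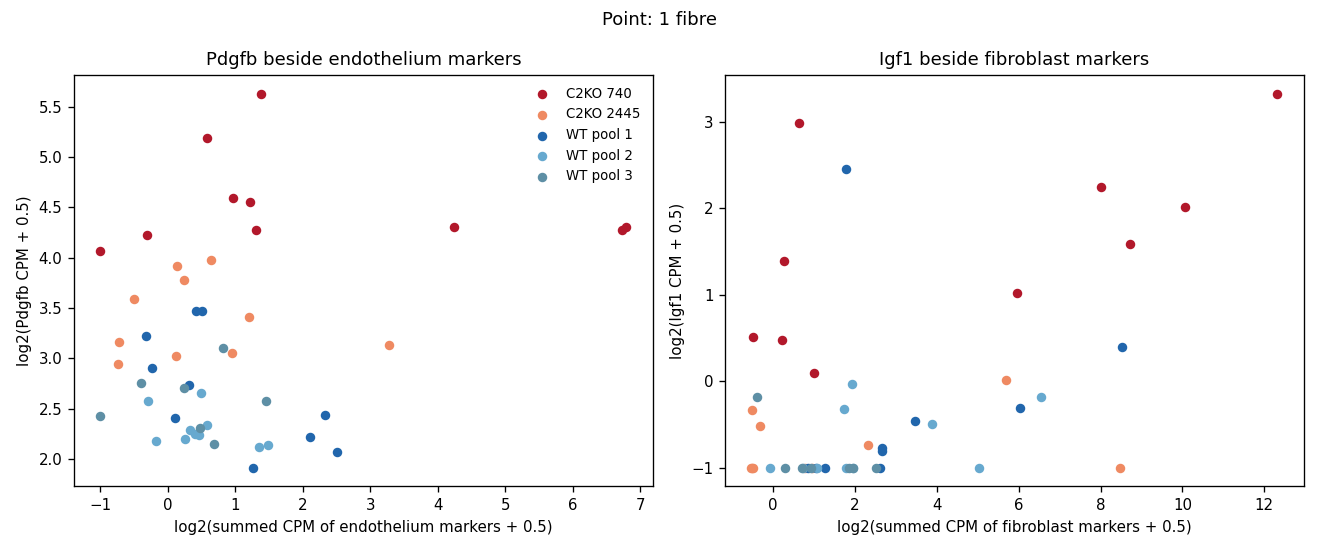
Pdgfb beside the summed endothelial markers (left) and Igf1 beside the summed fibroblast markers (right), both axes as log2(CPM + 0.5), with 1 point per fibre, C2KO pools in red shades and WT pools in blue shades. C2KO 740 fibres are highest for Pdgfb at any endothelial sum, from 0 to 110 CPM, and Igf1 is highest in the fibre with the most fibroblast signal, 9.56 CPM beside 5135 CPM.

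Pdgfa, on chromosome 5 (138976972 to 138994953, minus strand), was at 24.6, 37.8 and 62.1 CPM in C2KO fibres and at 19.4, 28.8 and 53.8 CPM in WT fibres. The ranges overlapped, with 18 of 20 C2KO fibres above the WT median. C2KO 740 fibres were again higher, at 30.4, 45.5 and 62.1 CPM, than C2KO 2445 fibres, at 24.6, 30.8 and 45.5 CPM. In pools the values were 43.2 CPM in C2KO 740 and 34.6 CPM in C2KO 2445, against 33.1, 25.4 and 33.4 CPM in the WT pools, a fold change of 0.35 (SE 0.16, edgeR adjusted p = 0.518).

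Fgf2, on chromosome 3 (37348653 to 37404830), a matrix-bound mitogen of satellite cells and endothelium, was near the limit of detection. It was at 0.10, 0.539 and 3.66 CPM in C2KO fibres and at 0, 0.151 and 1.78 CPM in WT fibres, where 3 fibres had no count, which allows up to 0.232 CPM. The pools overlapped, at 1.13 CPM in C2KO 740 and 0.450 CPM in C2KO 2445, against 0.615, 0.121 and 0.558 CPM in WT pools 1, 2 and 3 (fold change 0.88, SE 0.75, edgeR adjusted p = 0.714). Its counts were 108 and 43 in the C2KO pools and 78, 16 and 32 in the WT pools. The gene model in the files covers only 695 exon bases.

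Igf1, on chromosome 10 (87859056 to 87937047), was detected in every fibre of 1 C2KO prefix. All 10 C2KO 740 fibres had Igf1 counts, at 0.571, 2.31 and 9.56 CPM, whereas 6 of 10 C2KO 2445 fibres and 16 of 27 WT fibres had none. In CPM each C2KO 740 fibre lay above each C2KO 2445 fibre, a pattern that 0.443% of all genes tested showed. But the lowest C2KO 740 fibre, at 0.571 CPM, and the highest C2KO 2445 fibre, at 0.508 CPM, held 5 counts each. Only depth set these fibres apart. The WT fibres were at 0, 0 and 4.98 CPM, and 1 fibre of WT pool 1 alone held 60 of the 80 Igf1 counts of its pool. A fibre at 0 allows up to 0.386 CPM at these depths.

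Summed, Igf1 had 306 counts in C2KO 740 and 11 in C2KO 2445, against 80, 18 and 3 in WT pools 1, 2 and 3. The fold change was 2.55 (SE 1.35, edgeR adjusted p = 0.560) and turned to -1.28 (edgeR adjusted p = 0.812) without C2KO 740. Fibroblasts also make Igf1. In the 3 fibres of C2KO 740 whose fibroblast sum exceeded every WT fibre, Igf1 was at 2.50 to 9.56 CPM. In the 5 whose sum was at or under the WT median, it was at 0.571 to 7.45 CPM. The correlation of Igf1 with the fibroblast sum was 0.38 across the 47 fibres after subtracting pool means, and 0.60 across the 10 of C2KO 740. The part of fibroblast RNA in the Igf1 values was not tested.

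Igf2, on chromosome 7 (142650768 to 142661035, minus strand), a fetal growth factor imprinted in most tissues, was low throughout, at 0.406, 1.23 and 4.23 CPM in C2KO fibres and at 0.127, 0.889 and 7.67 CPM in WT fibres. The highest fibre was a WT one. The pools overlapped and the fold change was 0.20 (SE 0.48, edgeR adjusted p = 0.917). Igf2 was the only member whose exons share bases with another gene, 98 of them with Igf2os on the opposite strand, which reached at most 0.686 CPM.

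Socs2, on chromosome 10 (95411490 to 95416857, minus strand), differed between genotypes in spread more than in level. It was at 14.5, 24.1 and 33.7 CPM in C2KO fibres and at 4.96, 15.8 and 49.1 CPM in WT fibres. Every C2KO fibre lay inside the WT range. The highest fibre held 2.32 times the lowest in C2KO and 9.92 times in WT. In pools it was at 23.8 CPM in C2KO 740 and 25.4 CPM in C2KO 2445, against 20.8, 16.9 and 24.1 CPM in the WT pools (fold change 0.26, SE 0.16, edgeR adjusted p = 0.612). With run as a term over 7 pools, a fit with 1 residual degree of freedom that rests on the C2KO fibre of run 0092, the fold change was -0.70 (edgeR adjusted p = 0.322).

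The wide WT spread of Socs2 and Vegfa ran along the sex-linked transcripts of the fibres. Of the WT fibres, 15 had more than 10 counts of Y-linked genes alone and 11 more than 10 counts of Xist alone, with 1 fibre showing both, while all C2KO 740 fibres had Y-linked counts and all C2KO 2445 fibres had Xist. Every WT pool held both kinds, so fibres of more than 1 mouse, and the spread between WT pools can be smaller than that between mice. Socs2 was at 14.5, 22.8 and 33.7 CPM in the C2KO fibres with Y-linked counts, against 4.96, 10.0 and 20.2 CPM in the WT fibres with them. It was at 15.5, 24.6 and 32.9 CPM in the C2KO fibres with Xist, against 15.7, 31.8 and 49.1 CPM in the WT fibres with it. The 2 kinds of WT fibre did not overlap in WT pool 2, where those with Xist held 31.8 to 49.1 CPM and those with Y-linked counts 5.08 to 10.7 CPM. Nor did they in WT pool 3, where every fibre with Xist held at least 38.6 CPM and none with Y-linked counts reached 20 CPM. In WT pool 1 they overlapped, at 15.7 to 29.4 CPM with Xist and 10.0 to 20.2 CPM with Y-linked counts. The 2 kinds of C2KO fibre covered nearly the same range.

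Vegfa followed a like order among WT fibres, with more overlap. It was at 131, 203 and 345 CPM in C2KO fibres with Y-linked counts, against 37.8, 58.3 and 256 CPM in WT fibres with them, and 14 of those 15 WT fibres were at 102 CPM or less. It was at 60.0, 155 and 278 CPM in C2KO fibres with Xist, against 70.6, 203 and 328 CPM in WT fibres with it. The C2KO median was thus the higher one among fibres with Y-linked counts and the lower one among fibres with Xist. These comparisons were not tested, since each C2KO prefix held 1 kind and prefix and kind cannot be told apart, and the labels give no sex.

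**Figure D3:**
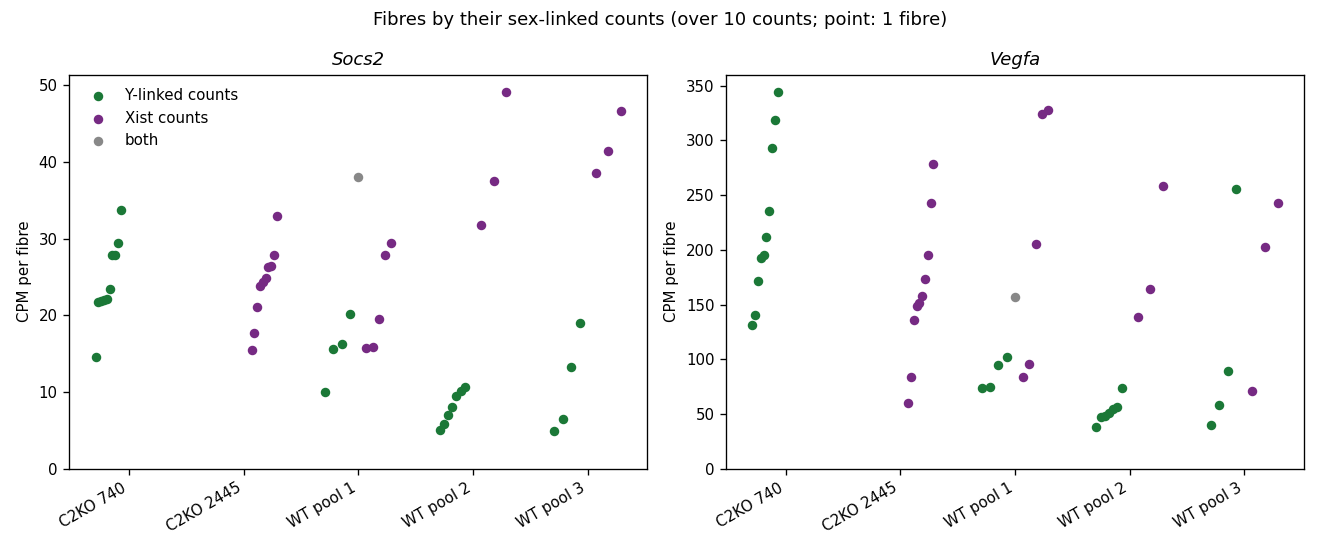
Socs2 (left) and Vegfa (right) in CPM per fibre, by pool, with fibres that had over 10 Y-linked counts in green, over 10 Xist counts in purple and both in grey. In WT pools 2 and 3 the purple points of Socs2, 31.8 CPM and above, lie clear of the green points, while the C2KO pools of both kinds cover like ranges.

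In run 0092, which held both genotypes, the single C2KO fibre could be set beside 7 WT fibres of the same run, with no test. Pdgfb was at 18.8 CPM in the C2KO fibre and at 3.93, 5.45 and 8.08 CPM in the WT fibres, and Igf1 at 7.45 CPM against 0, 0 and 0.381 CPM. Fgf2, at 3.66 CPM, Pdgfa, at 55.4 CPM, and Vegfb, at 99.5 CPM, also lay above every WT fibre of the run, the highest of which were at 1.78, 53.8 and 93.1 CPM. Vegfa, at 195 CPM, and Igf2, at 1.05 CPM, lay within the WT range, as did Socs2 at 14.5 CPM. This made 5 of 8 members above every WT fibre of the run, against 14.5% of all genes tested.

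Levels can be compared between genes only per length, here as counts per kilobase of exon per 1000000 gene counts. By this measure the C2KO medians ran from Vegfb (59.5) through Vegfa (43.8), Pdgfa (37.1), Socs2 (8.92), Pdgfb (5.34), Fgf2 (0.776) and Igf2 (0.290) to Igf1 (0.0690). The WT medians ran from Vegfb (48.5) through Pdgfa (28.3), Vegfa (21.4), Socs2 (5.86), Pdgfb (1.63), Fgf2 (0.218) and Igf2 (0.210) to Igf1 (0). Neighbours in the WT order had overlapping fibre ranges in both genotypes, except Vegfa and Socs2 in C2KO fibres. Pdgfa exceeded Vegfa per length in 8 of 20 C2KO fibres and 18 of 27 WT fibres, and Fgf2 exceeded Igf2 in 15 of 20 C2KO fibres and 14 of 27 WT fibres, so neither pair has a fixed order. The place of Fgf2 rests on its short gene model.

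**Figure D4:**
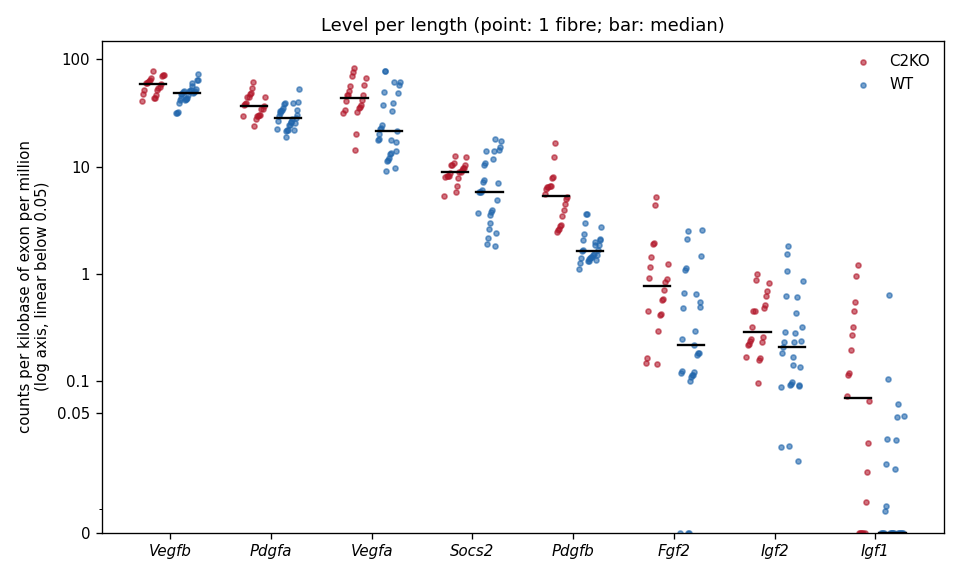
Level of each gene per length in counts per kilobase of exon per 1000000 gene counts, on a log axis that is linear below 0.05, with C2KO fibres in red left of WT fibres in blue. Each point is 1 fibre and each bar a median. Medians run from 59.5 in C2KO and 48.5 in WT for Vegfb to 0.0690 in C2KO and 0 in WT for Igf1.

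The related genes were taken from 8 lists, of which 69 of 84 genes were tested and none was called. Of the 69, 38 were higher and 31 lower in C2KO, with a median fold change of 0.05. At an unadjusted p under 0.05, 15 were higher and 2 lower, against 6.2% and 4.13% of all genes. The genes below were named by lowest unadjusted p or highest level in their list, and none of them passed the test.

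Of the VEGF ligands and receptors outside the members, 5 of 8 were tested and all 5 were higher in C2KO. Flt1, the receptor of both VEGF members, was at 2.95 CPM in C2KO 740 and 0.251 CPM in C2KO 2445, against 0.0710, 0 and 0.0174 CPM in WT pools 1, 2 and 3 (fold change 5.64, SE 1.39, edgeR adjusted p = 0.399). Few fibres held Flt1, which was at 0 in 7 of 10 C2KO 740, 9 of 10 C2KO 2445 and 25 of 27 WT fibres. Its highest fibre was at 15.8 CPM in C2KO 740 and 2.36 CPM in C2KO 2445. The Flt1 ligand Pgf was at 6.35 CPM in C2KO 740, 0.0105 CPM in C2KO 2445 and at most 0.213 CPM in a WT pool. The median fibre had no Pgf in either genotype, and the highest C2KO fibre held 50.2 CPM. The co-receptor Nrp1 was at 8.60 CPM in C2KO 740 and 0.491 CPM in C2KO 2445, against at most 2.09 CPM in a WT pool. The co-receptor Nrp2 was at 0.949 and 0.314 CPM in the C2KO pools, against at most 0.174 CPM in a WT pool. Flt1 was called by DESeq2's test (adjusted p = 0.0041), but not by edgeR on all 5 pools. With C2KO 740 as the lone C2KO pool, assumed to vary like the WT pools, the edgeR adjusted p was 0.0284 for Flt1 and 0.0191 for Pgf, whereas with C2KO 2445 as the lone one the fold change was -3.61 for Pgf and -1.27 for Nrp1. Flt1 is typical of endothelium, whose markers were highest in the same pool, and the part those cells had in these values was not tested.

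Of the PDGF list, 2 of 4 genes were tested. Pdgfra, the PDGF-A receptor of fibroblasts, was at 2.89 CPM in C2KO 740 and 0.293 CPM in C2KO 2445, against at most 0.317 CPM in a WT pool (fold change 3.19, SE 1.26), beside the fibroblast sums given above. Its fold change was 0.76 without C2KO 740 and 1.24 without the fibres rich in markers of other cells. Pdgfc was at most 0.426 CPM in any pool. In the FGF list 5 of 11 tested genes were higher and 6 lower. Fgf13, an intracellular FGF and the most abundant, was at 63.9 and 67.1 CPM in the C2KO pools and 60.4 to 65.9 CPM in the WT pools. Fgfr1, the main FGF receptor of the list, was at 20.4 and 13.9 CPM in the C2KO pools and 11.4 to 13.0 CPM in the WT pools (0.46, SE 0.18). That fold change was 0.16 without C2KO 740 and 0.053 without the fibres rich in endothelial, fibroblast or macrophage markers. Fgf7 (1.09, SE 0.36) and Fgf18 (3.27, SE 1.03) were low, with at most 2.53 and 0.699 CPM in a pool.

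All 6 IGF receptors and substrates were slightly lower in C2KO, with fold changes of -0.23 to -0.03, none of which passed the test. Irs2, which relays insulin and IGF receptor signals, was at 213 and 268 CPM in the C2KO pools and 258 to 268 CPM in the WT pools. Igf2r, which clears Igf2, was at 42.9 and 28.2 CPM in the C2KO pools and 37.9 to 45.6 CPM in the WT pools, and the adaptor gene Grb10 at 48.8 and 48.2 CPM in the C2KO pools and 42.6 to 60.4 CPM in the WT pools. The binding proteins moved unlike each other. Igfbp5, the main one in these fibres, was at 214 and 191 CPM in the C2KO pools and 323, 285 and 242 CPM in the WT pools, with no overlap (-0.49, SE 0.14, edgeR adjusted p = 0.413), as for 14.5% of all genes in that direction. Igfbp7, also made by endothelium, was at 10.3 CPM in C2KO 740 and at 0.872 to 1.59 CPM in all other pools (2.15, SE 0.81). Its fold change was 3.00 with C2KO 740 as the lone C2KO pool, assumed to vary like the WT pools (edgeR adjusted p = 0.0133), and -0.23 with C2KO 2445 as the lone one. It stood at -0.61 once the fibres rich in endothelial, fibroblast or macrophage markers were left out. Igfals, which binds circulating IGF complexes, was at 3.32 and 3.66 CPM in the C2KO pools and 2.44 to 4.04 CPM in the WT pools.

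Of the 12 growth hormone and SOCS genes, 6 were higher and 6 lower. Stat5b, the growth hormone effector, was at 276 and 276 CPM in the C2KO pools and 293 to 308 CPM in the WT pools (-0.14, SE 0.08), and Socs3, the cytokine inhibitor with the highest level, at 418 and 664 CPM in the C2KO pools and 597 to 713 CPM in the WT pools. Socs1 (0.62, SE 0.23) and Socs5 (0.59, SE 0.24) were at most 5.85 and 3.84 CPM in a pool. In the hypoxia and PGC-1 list 12 of 19 genes were higher, with a median of 0.09. Bnip3, a mitophagy receptor induced by hypoxia, was at 297 and 298 CPM in the C2KO pools and 221 to 247 CPM in the WT pools (0.35, SE 0.08), and Egln3, an oxygen-sensing prolyl hydroxylase, at 18.8 and 16.3 CPM in the C2KO pools and 11.2 to 13.1 CPM in the WT pools (0.51, SE 0.12). Both had an edgeR adjusted p of 0.399. Over the 14 alternatives the fold change ran from 0.078 to 0.39 for Bnip3 and from 0.41 to 1.88 for Egln3, and neither was called in any. Where an alternative brought the adjusted p of either gene below 0.05, its fold was not above 1.5. The glycolytic genes Ldha (-0.01) and Pfkfb3 (-0.08) lay near 0.

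Of the other angiogenic factors, 5 of 9 were higher. Angptl2, a secreted angiopoietin-like protein, was at 97.4 and 105 CPM in the C2KO pools and 149, 150 and 134 CPM in the WT pools (-0.51, SE 0.10, edgeR adjusted p = 0.355). The pools did not overlap, as for 14.5% of all genes in that direction. The Angptl2 fold change ran from -0.65 to -0.46 over the 14 alternatives, and it was called in none. Where an alternative brought its adjusted p below 0.05, the fold was not above 1.5. Hbegf, a ligand of the EGF receptor, was at 333 and 358 CPM in the C2KO pools and 260, 108 and 237 CPM in the WT pools (0.78, SE 0.34, edgeR adjusted p = 0.501).

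**Figure D5:**
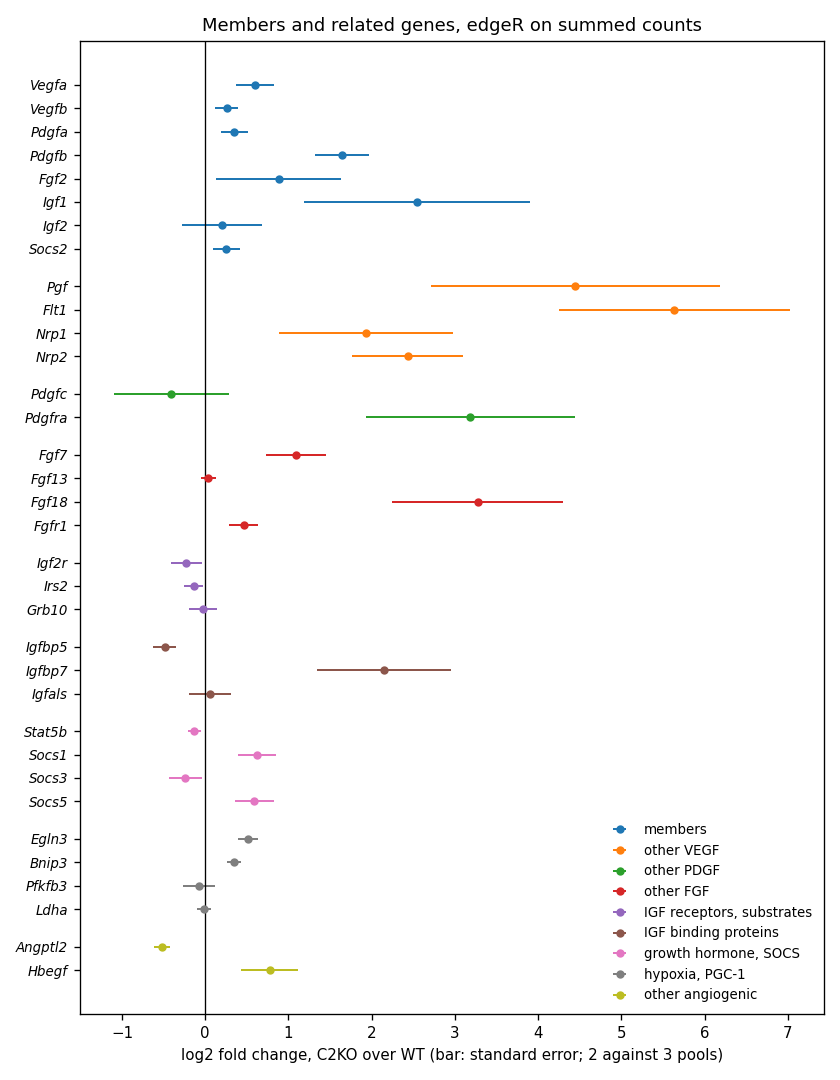
Log2 fold change of C2KO over WT for the 8 members and the named genes of the 8 related lists, as points with standard error bars from edgeR on 2 C2KO and 3 WT pools. All member points lie right of 0, from 0.20 for Igf2 to 2.55 for Igf1, whose bar is the widest of the members.

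How the members varied together was described across the 47 fibres by Pearson r of log2(CPM + 0.5) after subtracting each pool's mean, which takes out differences between pools but not between the 3 runs within C2KO 740. That subtraction also leaves in differences between WT fibres with Y-linked and with Xist counts, since every WT pool held both kinds. Fibres of a pool may share a mouse, and those of every pool but C2KO 740 share a run, so these values carry no test. Vegfa went most with Socs2 (0.51, and 0.16 among C2KO fibres and 0.58 among WT fibres) and with Vegfb (0.41). Both Vegfa and Socs2 ran along the sex-linked counts of WT fibres, and the part of this in their r was not tested. Pdgfa went with Fgf2 (0.43) and Pdgfb (0.38). Igf2 ran against Vegfb (-0.43) and Pdgfb (-0.43), and Igf1, with many fibres at 0, had its highest r in size, 0.25, with Fgf2.

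The genes most like each abundant member were sought among the 7644 other genes with a mean of at least 5 CPM. For Vegfa they were Pgam1, a glycolytic mutase (0.84), Bhlhe40, a repressor of the clock and of hypoxia responses (0.83), and Impact, a regulator of Gcn2 (0.82). For Vegfb they were Pdk2 (0.81), a kinase that restrains pyruvate oxidation, and the mitochondrial enzymes Mdh2 (0.75) of the citric acid cycle and Acaa2 (0.73) of fatty acid oxidation. For Pdgfa they were Srm, spermidine synthase (0.68), Ankrd33b (0.64) and Igf1r (0.61).

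For Pdgfb the values were lower, with the torsin gene Tor3a (0.62), Wsb2 (0.58) and the membrane-shaping gene Pacsin2 (0.57). For Socs2 they were Actc1, cardiac actin (0.82), AW551984 (0.78) and Smad7, an inhibitor of TGF-beta signals (0.75). Those of Socs2 came mainly from WT fibres, at 0.42, 0.32 and 0.37 among C2KO fibres and 0.85, 0.83 and 0.80 among WT fibres. Socs2 and, with more overlap, Vegfa differed between WT fibres with Xist and with Y-linked counts. The part of that difference in the values of either gene was not tested. Actc1 was itself one of the 6 called genes, higher in C2KO by 2.72 (edgeR adjusted p = 0.0160), which Socs2 was not.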

How the data were processed

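Gene counts of 47 single fibres were used. Per the file headers, the authors deposited raw counts of read pairs over exons, made with featureCounts 1.5.2 with strand option 2 on mm10, and the submitters' notes name HISAT2 2.0.5. Multi-mapping reads were left out of the counts, and the sources used here do not state the strandedness of the kit.

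Counts were summed per pool and tested with edgeR 4.0.16 (R 4.3.3; glmQLFit, glmQLFTest, TMM, filterByExpr, Benjamini-Hochberg over 12863 genes). The test was checked for the size and sign of its fold changes on simulated counts of independent pools with a common dispersion. That check does not cover runs confounded with genotype or mice shared between pools. DESeq2 1.42.0, limma 3.58.1 (voom, and mean log2 CPM of fibres), other size factors, filters and pools were alternatives. The authors' methods state limma's thresholds of a fold over 1.5 and an adjusted p under 0.05. The lowest chi-square per degree of freedom among 1081 fibre pairs was 7.31, far above that of copies of 1 library. Intervals and limits at 0 (3 counts) cover counting error only.

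The members and the lists of related genes and markers were chosen with earlier results of these data known. Named genes are all members, and, of each list with no called gene, the 2 with the lowest unadjusted p and the 2 with the highest CPM, plus the 3 most alike per member. Vegfd is listed under its older symbol Figf. Protein sequences were not used here.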

Additional observations from a re-analysis of the deposited data

Results flagged for a closer look

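In 40 sets, each of the 8 genes in each of the 5 pools, the highest and lowest fibre were set against the others of the pool by Dixon's gap over range. About 1 set in 20 stands out by chance where values are normally distributed. CPM near 0, as for Fgf2, Igf1 and Igf2, are not, so this rate gives no measure of an excess here. Of the sets, 5 stood out, all by their highest fibre and all in WT pools. Pdgfa was at 40.4 CPM in 1 fibre of WT pool 2, with the next at 28.2 CPM, and Fgf2 at 0.454 CPM in 1 fibre of the same pool, with the next at 0.205 CPM. Igf1 was at 4.98 CPM in 1 fibre of WT pool 1, with the next at 0.815 CPM, and at 0.381 CPM, or 3 counts, in the only fibre of WT pool 3 with a count. Igf2 was at 3.67 CPM in 1 fibre of WT pool 3, with the next at 1.35 CPM.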

How the results depend on the processing

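Over 14 alternatives, the fold changes of Vegfa (0.41 to 0.80), Vegfb (0.15 to 0.49), Pdgfa (0.18 to 0.77), Pdgfb (1.01 to 2.09) and Fgf2 (0.08 to 2.74) stayed above 0. Leaving out 1 pool at a time gave 0.41 to 0.77 for Vegfa, 1.01 to 2.09 for Pdgfb, -1.28 to 4.03 for Igf1, -0.061 to 0.81 for Igf2 and 0.13 to 0.38 for Socs2. Without a C2KO pool the other is the lone one, assumed to vary like the WT pools, which alone give the spread. Pdgfb was called by DESeq2's test (1.65, adjusted p = 0.00036) and, on that assumption, without C2KO 2445. With run as a term Igf2 stood at -0.013 and Socs2 at -0.70. Among related genes Fgf7 stood at -0.31, Fgf13 at -0.091, Igfbp7 at -0.12, Socs1 at -0.26, Socs5 at -0.38 and Ldha at 0.18. Pgf stood at -3.47 (SE 21.3) and Flt1 at -3.47 (SE 10.1), too imprecise to give a direction. In run 0092 Flt1 had no count in the C2KO fibre and at most 1 count in a WT fibre. The cause of these reversals was not tested.

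The genes called numbered 6, and 11 without a filter, 197 by DESeq2's test, 10 from mean log2 CPM, 1 with run as a term and 1 to 358 leaving out a pool (15 without C2KO 740, 358 without C2KO 2445). Called genes of the related lists numbered 0, and 2 by DESeq2's test and 0 to 9 leaving out a pool. Without fibres rich in markers of other cells Grb10 stood at 0.014 and Ldha at 0.0082. By the choice made after seeing the data Pdgfc stood at 0.10, Igfbp7 at -0.61 and Ldha at 0.029. With 7 pools by run and prefix Igfals stood at -0.037 and Ldha at 0.037. Leaving out 1 pool gave -3.61 to 5.40 for Pgf, -1.27 to 2.88 for Nrp1, -0.75 to 0.18 for Pdgfc, -0.0031 to 0.076 for Fgf13, -0.56 to 0.052 for Igf2r, -0.31 to 0.021 for Irs2, -0.12 to 0.14 for Grb10, -0.23 to 3.00 for Igfbp7, -0.12 to 0.21 for Igfals, -0.60 to 0.059 for Socs3, -0.21 to 0.13 for Pfkfb3 and -0.061 to 0.042 for Ldha. With a pseudocount of 2, all 3 most alike genes recurred for Vegfa, Vegfb, Pdgfa and Pdgfb, and 2 of 3 for Socs2.

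Low counts of Fgf2, Igf1 and Igf2 limit their precision, and run and genotype were nearly confounded. No paired analysis was possible because the labels give no replicate numbers that the genotypes share.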
